A study of Rattus norvegicus with 372 samples.

Results

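Gene expression was compared between primary rat hepatocytes exposed to 400 µM valproic acid and hepatocytes given vehicle only. The valproic acid wells were taken by their labels, as every well marked Valproic at a dose of 400 µM, and came to 6 of the 186 wells run by the whole transcriptome (WT) assay, 3 in each of 2 batches. They were set against all 9 vehicle wells of the same batches, 3 in batch 1 and 6 in batch 2. The same 6 and 9 lysates were also run by the S1500+ surrogate (ST) assay, so that 12 of the 372 libraries of the series hold this treatment, and the ST counts served as a check on the WT counts. The hepatocytes were freshly isolated from male Wistar rats, 1 rat per batch, kept between layers of collagen, and lysed after 24 h of exposure. Valproic acid wells and vehicle wells shared 0.5% DMSO and a medium with insulin, dexamethasone and EGF, and no well carried a genetic change. Replicate wells are technical, and only the 2 rats are biological replicates. The p-values therefore measure mostly the spread between wells.

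Valproic acid is a branched medium-chain fatty acid used against epilepsy, and it is also an inhibitor of class I histone deacetylases. In liver it is activated to an acyl-CoA, conjugated to carnitine and broken down in part by beta-oxidation, and steatosis is a known form of its liver toxicity. Fatty acids and fibrate drugs activate PPARα, a nuclear receptor that pairs with RXR on direct repeats of a half-site spaced by 1 base (DR1) and that in rat liver drives genes of fatty acid uptake, omega-hydroxylation, peroxisomal and mitochondrial beta-oxidation and ketone body formation.

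The promoters of the fatty acid genes that rose or fell are shown first, because PPARα acts through the DR1 element. Of the lists only called genes were looked up, the matches are a description, and no test of the motif was made. Of 73 genes called in the lists of fatty acid oxidation, ketone bodies, lipid droplets and PPAR-responsive hormones, 60 were found by symbol in RefSeq promoter windows of the assembly GRCr8, which run from 250 bases before to 50 bases after the start of the gene. Each window was searched on both strands for 2 copies of AGGTCA with 1 free base between them. The best match had at most 1 mismatch in 4 of the 60 genes and at most 2 in 10. Over all 27457 genes of the table, which has 33469 windows, 0.514% held a match with at most 1 mismatch and 4.06% one with at most 2. A match with at most 3 mismatches was found in 24 of the 60 genes and in 26.1% of all genes. The 4 windows with at most 1 mismatch are printed 5′ to 3′ on the strand of the gene, with the match in capitals, and lie at chr4:104749090-104749389 (plus strand) for Fabp1, chr6:109399604-109399903 (plus strand) for Acot4, chr2:24721709-24722008 (plus strand) for Acot12 and chr10:55236656-55236955 (minus strand) for Acadvl.
Fabp1: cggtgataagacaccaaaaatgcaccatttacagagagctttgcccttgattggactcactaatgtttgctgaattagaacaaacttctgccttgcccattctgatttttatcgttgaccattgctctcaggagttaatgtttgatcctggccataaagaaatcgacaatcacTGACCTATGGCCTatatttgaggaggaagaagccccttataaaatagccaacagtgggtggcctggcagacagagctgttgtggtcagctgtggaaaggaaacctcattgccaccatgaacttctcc
Acot4: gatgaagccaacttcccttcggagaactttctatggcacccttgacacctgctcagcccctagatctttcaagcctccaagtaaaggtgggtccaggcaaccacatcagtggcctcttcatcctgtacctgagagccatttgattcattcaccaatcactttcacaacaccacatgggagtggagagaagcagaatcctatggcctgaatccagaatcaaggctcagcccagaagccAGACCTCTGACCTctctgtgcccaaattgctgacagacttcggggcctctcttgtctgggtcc
Acot12: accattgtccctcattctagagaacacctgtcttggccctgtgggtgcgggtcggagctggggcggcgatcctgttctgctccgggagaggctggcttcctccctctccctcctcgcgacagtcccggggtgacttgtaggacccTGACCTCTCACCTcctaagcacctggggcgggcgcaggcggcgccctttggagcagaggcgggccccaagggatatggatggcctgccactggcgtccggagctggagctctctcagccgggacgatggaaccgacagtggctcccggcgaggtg
Acadvl: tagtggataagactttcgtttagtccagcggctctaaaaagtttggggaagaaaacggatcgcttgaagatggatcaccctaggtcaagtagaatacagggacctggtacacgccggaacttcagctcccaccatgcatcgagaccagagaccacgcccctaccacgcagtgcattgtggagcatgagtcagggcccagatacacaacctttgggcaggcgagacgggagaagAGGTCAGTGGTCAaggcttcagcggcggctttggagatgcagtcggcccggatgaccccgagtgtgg
The match began 77 bases before the start of Fabp1, 13 bases before that of Acot4, 105 before that of Acot12 and 17 before that of Acadvl. It was read on the minus strand in Fabp1, Acot4 and Acot12, where the printed letters are its reverse complement, and on the plus strand in Acadvl. All 4 genes rose, as did 56 of the 60 genes with a window. Fabp2, with a match of 2 mismatches, fell, and among the genes with the largest rises the best match had 4 mismatches in Acot1 and 3 in Cyp4a2 and Ehhadh.

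In TempO-Seq a pair of detector oligos is ligated on its target transcript and sequenced, so that a count is a number of ligated probes and levels cannot be compared between genes. The 6 valproic acid wells had 5611234 to 7543598 reads by WT assay and the vehicle wells 5492941 to 8264980. The ST libraries had 989468 to 1660246 and 984283 to 1643796 reads. Levels are given as CPM, counts scaled to a common library size with TMM factors, and changes as log2 fold change (L2FC) ± standard error from 6 and 9 wells. A gene is called differentially expressed (a DEG) and said to rise or fall at a Benjamini-Hochberg adjusted p below 0.05 by edgeR's quasi-likelihood test over all genes tested. A lower level in a lysate can come from fewer cells of a type or from less RNA per cell, which cannot be told apart.

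Valproic acid at 400 µM changed the expression of 2964 of 10191 genes tested by WT assay (29.1%), of which 1536 rose (15.1%) and 1428 fell (14.0%). A change of at least 2-fold was seen in 505 of the DEGs (4.96% of genes tested), and more of them rose, 352, than fell, 153. The median L2FC was 0.63 among the genes that rose, -0.48 among those that fell and -0.01 over all genes tested. With the counts of the wells summed, so that each rat gave 1 value per treatment, 1228 genes (12.0%; 6.72% higher and 5.33% lower) were called, all of them with the same direction as before. By ST assay 791 of 1760 genes (44.9%) were called, with 22.7% of the genes tested higher and 22.3% lower. Among 1603 genes tested by both assays, 600 were called in both, which were 86.7% of the WT calls and 81.9% of the ST calls among them, and none of the 600 changed direction between the assays.

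Batch 1 and batch 2 share no wells. In batch 1 alone 1457 genes were called (14.3%; 8.44% higher and 5.86% lower) and in batch 2 alone 2603 (25.5%; 12.8% higher and 12.7% lower). Of these 1131 were called in both, 77.6% of the list of batch 1 and 43.5% of the list of batch 2, and 1128 of them moved in one direction. In 1445 genes (14.2%) the wells with valproic acid lay above, or below, all vehicle wells of their batch with the same direction in both batches (7.74% above and 6.44% below).

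The list with the highest median L2FC was that of the fatty acid omega-hydroxylases. Cyp4a1, which hydroxylates the terminal carbon of fatty acids, stood at 665, 705 and 736 CPM in the valproic acid wells of batch 1 and at 406, 489 and 502 CPM in those of batch 2. Its vehicle wells held 1.08, 1.61 and 2.39 CPM in batch 1, and ran from 0.832 to 2.32 CPM with a median of 1.64 in batch 2. The groups did not overlap in either batch, and Cyp4a1 rose by an L2FC of 8.36 ± 0.38 (adjusted p = 2.52e-47, edgeR). Cyp4a2 went from 7.96 to 13.2 CPM over the 9 vehicle wells to 2872, 3104 and 3227 CPM in batch 1 and 1679, 1761 and 1943 CPM in batch 2, an L2FC of 7.71 ± 0.34. Of the 6 symbols listed for this family 3 were on the assay and only these 2 passed the filter on low counts. Both were called in each batch and by ST assay, with L2FC of 8.54 and 7.19 there. Rat CYP4A genes are similar in sequence, so that reads may be shared among them.

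**Figure D1:**
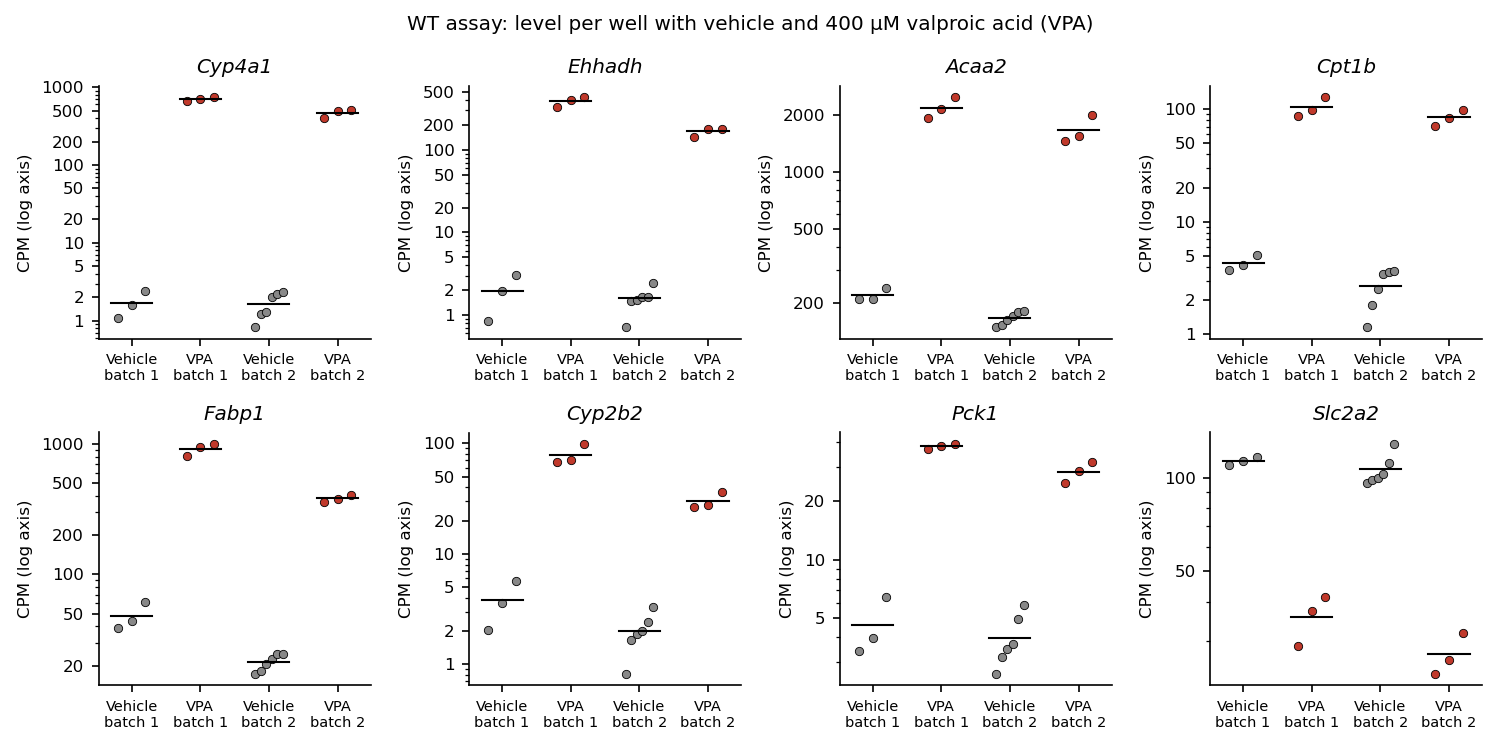
Level in CPM (log axis, one scale per panel) of 8 genes in every vehicle well and every well with 400 µM valproic acid (VPA) by WT assay, split by batch, where each point is a well and the bar the mean of the group. In all 8 genes the valproic acid wells lie apart from the vehicle wells of their batch, above them in 7 genes and below them in Slc2a2.

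Acyl-CoA thioesterases, which release free fatty acids from coenzyme A in the cytosol, mitochondria and peroxisomes, rose in the 7 members that passed the filter on low counts, out of 12 on the assay. The median L2FC of the 7 was 2.52. Acot1, the cytosolic enzyme, had 2 reads in all over the 9 vehicle wells and 1115 in the valproic acid wells. Its level was 37.3, 40.7 and 41.2 CPM in batch 1 and 11.4, 13.4 and 19.5 CPM in batch 2, against at most 0.179 CPM in a vehicle well. Acot1 passed the filter through treated wells only, with a mean of 0.222 counts in vehicle wells and 416 over all 186 wells, so that its presence among the members tested is no support for the list. The ratio of the summed reads, scaled for library size, was 835 with an exact 95% interval for counting error of 231 to 6906. Acot4, one of the peroxisomal thioesterases and a gene with a close DR1 match in its window, rose by 3.35 ± 0.20, the mitochondrial Acot2 by 2.88 ± 0.17 and the peroxisomal Acot3 by 2.52 ± 0.17. Acot7 (1.27 ± 0.11), Acot12 (1.14 ± 0.12) and Acot13 (0.56 ± 0.18) moved less. The call of Acot13 was lost when the wells were summed per rat, and when replicate 1 of valproic acid in batch 1 was left out (L2FC 0.46).

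In the peroxisome, beta-oxidation shortens very long and branched fatty acids, and 14 of 16 tested genes of this list rose while none fell. Hacl1, among the 14, passed the filter only with the wells of valproic acid and WY14643. Its mean was 15.0 counts over all wells and 7.70 without them, so that it is no support for the list. The median L2FC of the list was 2.02, and in 14 genes the wells did not overlap in either batch. Ehhadh, the bifunctional enzyme that hydrates and dehydrogenates the enoyl-CoA, had 328, 401 and 431 CPM with valproic acid in batch 1 and 142, 178 and 181 CPM in batch 2. In vehicle wells it had 0.853, 1.96 and 3.00 CPM in batch 1 and between 0.713 and 2.46 CPM (median 1.59) in batch 2. Its L2FC was 7.08 ± 0.26. The valproic acid wells lay far above the vehicle wells in both batches.

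The other peroxisomal genes rose by less than Ehhadh. Acyl-CoAs are formed by the synthetases Acsl1 (L2FC 3.66 ± 0.17) and Slc27a2 (2.36 ± 0.14), and the transporter Abcd3, which brings them into the organelle, rose by 2.03 ± 0.11. The isomerase Ech1 rose by 3.49 ± 0.16, the branched-chain oxidase Acox2 by 1.76 ± 0.17, and the carrier protein Scp2 by 0.81 ± 0.13. Alpha-oxidation of phytanic acid was represented by Phyh (2.24 ± 0.13) and Hacl1 (2.00 ± 0.32). As stated above, Hacl1 passed the filter only with the wells of valproic acid and WY14643. The carnitine acyltransferases Crat (2.48 ± 0.12) and Crot (1.64 ± 0.11), which prepare shortened chains for export, rose as well. The thiolase Acaa1a rose by 1.59 ± 0.10 in the WT assay and by 4.17 in the ST assay, and the isomerase Eci2 by 0.64 ± 0.08 and 1.40. The assays hold their own probe sets, and Acaa1a has a close paralog. The racemase Amacr (L2FC 0.38 ± 0.16, adjusted p = 0.0503, edgeR) and the cofactor carrier Slc25a17 (-0.11 ± 0.08, adjusted p = 0.298, edgeR) did not pass the threshold. Amacr passed it by ST assay, with DESeq2 and with RLE size factors.

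Of 17 genes of peroxisome assembly and membrane, 9 rose and none fell, with a median L2FC of 0.41. Pex11a, which acts in the division of peroxisomes, rose by 3.06 ± 0.19, catalase (Cat) by 2.03 ± 0.11 and the membrane channel protein Pxmp2 by 1.10 ± 0.11. The remaining 8 genes, all of the Pex family, had L2FC between -0.14 and 0.33 and did not pass the threshold.

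Mitochondrial import and oxidation of fatty acids changed in the same direction. In the carnitine list 5 of 7 genes rose and none fell. Cpt1b, the muscle form of the carnitine palmitoyltransferase of the outer membrane, went from 3.75, 4.11 and 5.05 CPM to 87.4, 97.8 and 128 CPM in batch 1 and from 1.16 to 3.62 CPM (median 2.96) to 71.6, 84.6 and 99.02 CPM in batch 2 (L2FC 4.82 ± 0.19). Cpt1a, the liver form, rose by 2.20 ± 0.21 and Cpt2 of the inner membrane by 1.57 ± 0.13. The carnitine importer Slc22a5 (1.24) and Bbox1 (1.20), the last enzyme of carnitine synthesis, also rose. These last 2 genes were chosen after their values were seen.

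Of 16 genes of mitochondrial beta-oxidation 13 rose and 1 fell, with a median L2FC of 1.45. The rise was largest for the thiolase Acaa2 (3.30 ± 0.16) and for Eci1 (3.09 ± 0.15) and Decr1 (2.93 ± 0.12), which process unsaturated chains. Acaa2 stood at 150 to 183 CPM in vehicle wells of batch 2 and at 1459, 1559 and 1997 CPM with valproic acid. Of the acyl-CoA dehydrogenases, L2FC were 2.02 for the medium-chain Acadm, 1.48 for the very-long-chain Acadvl and 0.74 for the long-chain Acadl. Acadsb, for short branched chains, did not pass the threshold (0.19). The gene that fell was Acsl4 (-0.43), a synthetase for arachidonic acid, which was not called in batch 1 alone or with wells summed per rat. The dehydrogenases and Acsl4 were chosen after their values were seen.

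Ketone bodies are made in liver mitochondria from the acetyl-CoA of beta-oxidation. Acat1, which joins 2 acetyl-CoA, rose by 3.13 ± 0.20 and Bdh1, which forms hydroxybutyrate, by 1.39 ± 0.16. Of the 6 genes tested 4 rose and 1 fell. The one that fell was Oxct1, which spends ketone bodies in other tissues (L2FC -1.13 ± 0.40), a gene of at most 2.41 CPM that was called neither in batch 1 nor in batch 2 alone, nor with wells summed per rat.

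Of 22 genes for fatty acid uptake and storage 14 rose and 1 fell. The 9 wells of culture medium alone gave a further control, against which 12 of the 22 were higher and 4 lower. Over all genes tested 17.6% were higher and 17.3% lower than in medium. Fabp1, the main fatty acid binding protein of the liver and the gene with a DR1 match 77 bases before its start, went from 38.7, 44.3 and 61.8 CPM to 815, 953 and 999 CPM in batch 1. In batch 2 it went from 17.4 to 24.5 CPM (median 21.6) to 358, 381 and 408 CPM. Its L2FC was 4.24 ± 0.28 and the groups did not overlap. Fabp7, best known from brain, rose by 2.08 ± 0.16, and Hilpda, which holds back the lipase of lipid droplets, by 2.07 ± 0.12. Plin2, the coat protein of the droplets, rose by 1.77 ± 0.10, from 231 to 320 CPM over all vehicle wells to 865 to 1077 CPM over all valproic acid wells, and G0s2, another inhibitor of that lipase, by 1.62. The gene that fell was the intestinal Fabp2 (-0.86), whose call was lost with wells summed per rat. Plin2, G0s2 and Fabp2 were chosen after their values were seen.

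**Figure D2:**
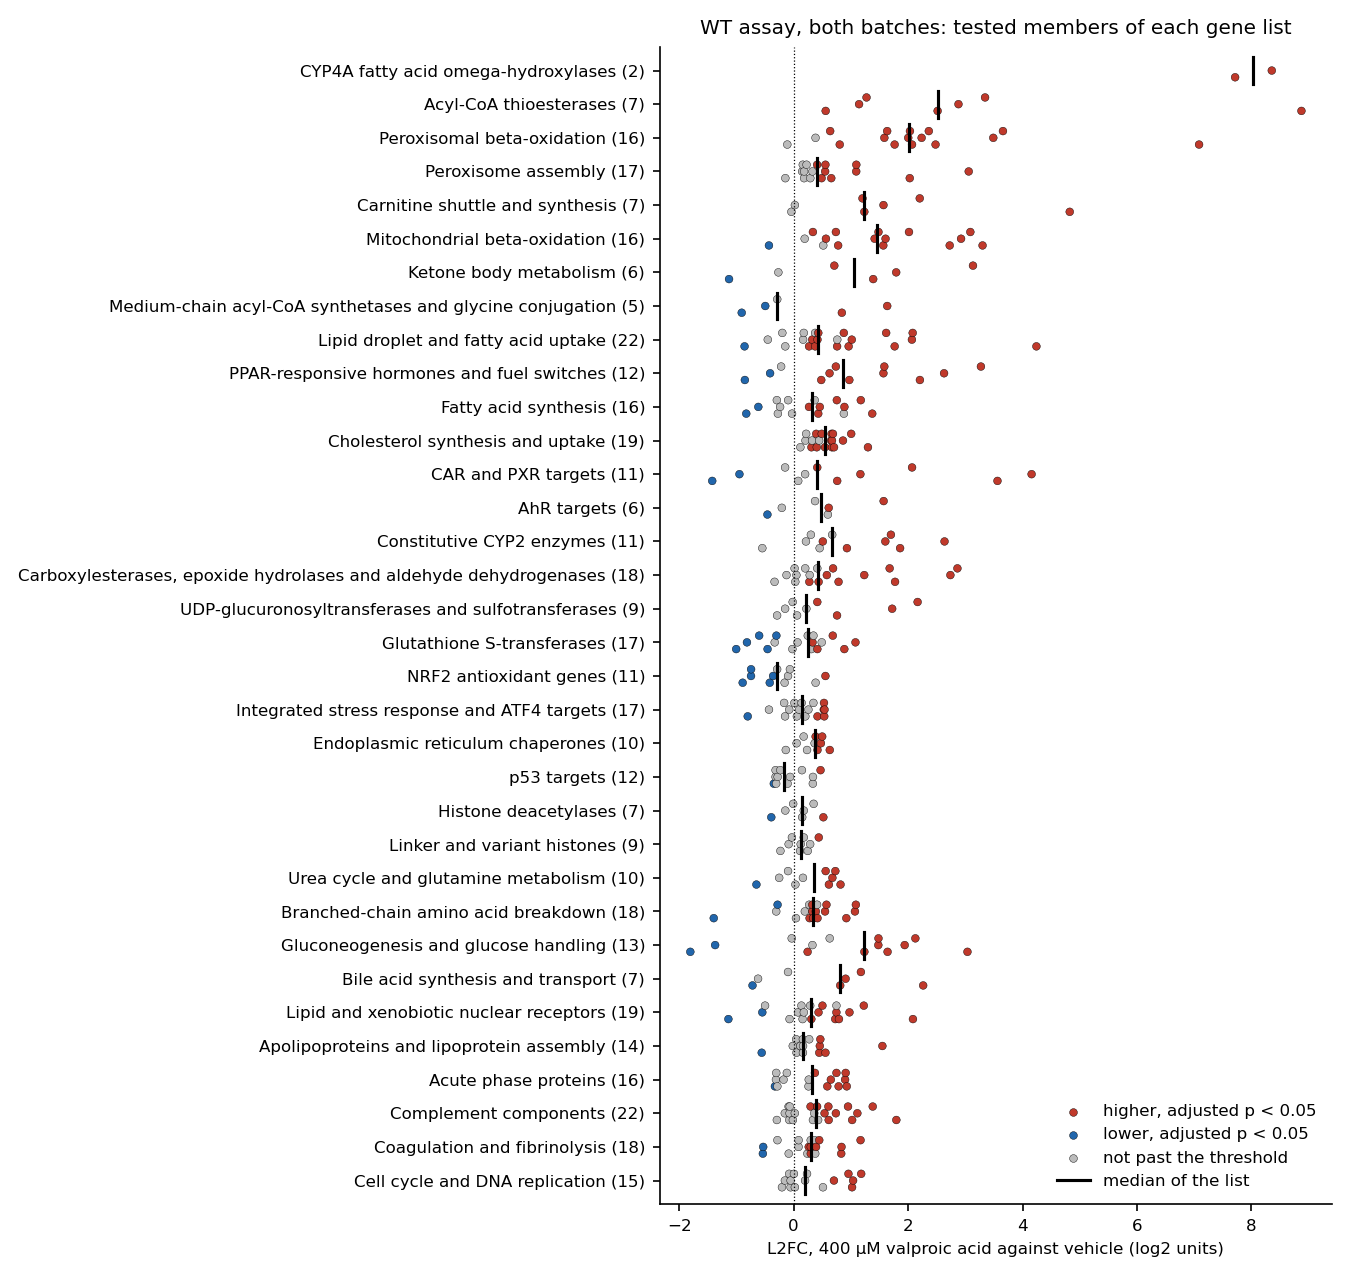
L2FC of 400 µM valproic acid against vehicle (WT assay, both batches, horizontal axis in log2 units) for every tested member of each gene list, with the number tested in brackets, where each point is a gene, red and blue mark genes past an adjusted p of 0.05 and the black bar is the median of the list. The points of the upper lists reach an L2FC of 8.87, while those of the ATF4, p53 and histone lists stay between -0.80 and 0.54.

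Genes that switch the cell between glucose and fat moved as well. Among 12 hormones and switches that respond to PPARs 9 rose and 2 fell, with a median L2FC of 0.86. Pdk4, which shuts off pyruvate dehydrogenase, rose by 3.27 ± 0.53 from a very low level, with at most 0.341 CPM in a vehicle well and 1.08 to 2.12 CPM in the valproic acid wells. The pantetheinases Vnn1 (2.63 ± 0.14) and Vnn3 (2.21 ± 0.16) rose in both batches. Pdp1, a phosphatase that reactivates pyruvate dehydrogenase, fell by 0.85 on the log2 scale and Pdk2 by 0.41. Fgf21, a fasting hormone, rose by 0.74. The calls of Pdk2 and Fgf21 were lost with wells summed per rat. Pdp1, Pdk2 and Fgf21 were chosen after their values were seen.

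Of 13 genes of glucose metabolism 8 rose and 2 fell. Pck1, the entry enzyme of gluconeogenesis, had 37.1, 38.4 and 39.3 CPM with valproic acid in batch 1 against 3.41, 3.96 and 6.43 CPM with vehicle, and 24.7, 28.4 and 31.9 CPM in batch 2 against 2.60 to 5.82 CPM. Its L2FC was 3.04 ± 0.23. Fbp1 rose by 1.94 ± 0.11 and G6pc, the last enzyme of glucose release, by 2.13 ± 0.45 from 31 reads over all vehicle wells. Slc2a2, the glucose transporter of hepatocytes, fell by 1.80 on the log2 scale (SE 0.15), from 109, 113 and 117 CPM to 28.9, 37.3 and 41.3 CPM in batch 1 and from 96.4 to 128 CPM to 23.5, 25.9 and 31.8 CPM in batch 2. The other that fell was the glycolytic Pklr, by 1.37. Pklr was chosen after its values were seen.

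Fatty acid synthesis showed no single direction, with 7 genes up, 2 down and 7 not called among 16. Scd, the desaturase that makes oleate, rose by 1.37 ± 0.18 and its regulator Srebf1 by 1.17 ± 0.13, whereas Acly, which supplies cytosolic acetyl-CoA, fell by 0.62. The rise of Scd depended on the control. Vehicle wells had 9.13 to 21.4 CPM, valproic acid wells 32.3 to 56.0 CPM and wells of culture medium alone 74.2 to 154 CPM, so that Scd was lower than in medium (L2FC -1.41). Medium alone differed from vehicle in 1285 genes (12.6%; 7.51% higher and 5.10% lower). Against medium, valproic acid gave 3557 DEGs (34.9%; 17.6% higher and 17.3% lower), among them 2 genes of the list that were higher and 7 that were lower. Scd2 rose by 0.89 ± 0.28, a call that was lost with the wells summed per rat, and its L2FC against medium was -0.19. Acly was chosen after its values were seen.

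Genes of cholesterol synthesis and uptake changed differently in the batches. Over both batches 14 of its 19 genes rose and none fell, led by Insig1 (1.30 ± 0.14), Hmgcs1 (1.01 ± 0.22) and Stard4 (0.69 ± 0.13), but in batch 1 alone 1 gene rose and 1 fell and in batch 2 alone all 19 rose. With wells summed per rat 2 genes remained called. In 9 of the 19 genes the change differed between the batches, and in all 9 it was higher in batch 2. Over all 10191 genes it differed in 43 (0.422%; 0.255% higher and 0.167% lower in batch 2), or in 23 to 44 when a well was left out. Lanosterol synthase (Lss) had 6.45, 7.58 and 8.996 CPM with valproic acid and 4.78, 8.39 and 10.5 CPM with vehicle in batch 1, and 11.2, 13.3 and 13.3 CPM against 3.33 to 5.10 CPM in batch 2. Its L2FC was -0.04 in batch 1 and 1.503 in batch 2 (adjusted p of the difference = 5.73e-05, edgeR). The demethylase Cyp51 had an L2FC of -0.37 and 1.503, Msmo1 of -0.38 and 1.44 and Mvd of -0.46 and 1.26, with adjusted p of the difference between 4.86e-07 and 2.02e-05 (edgeR). The vehicle wells of batch 1 held more Cyp51 than those of batch 2, with 93.8 to 103 CPM against 20.0 to 34.3 CPM, whereas for Lss they overlapped. Against medium alone 3 genes were higher and 7 lower in batch 1, and 16 higher and none lower in batch 2. Lss, Cyp51, Msmo1 and Mvd were chosen after their values were seen.

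**Figure D3:**
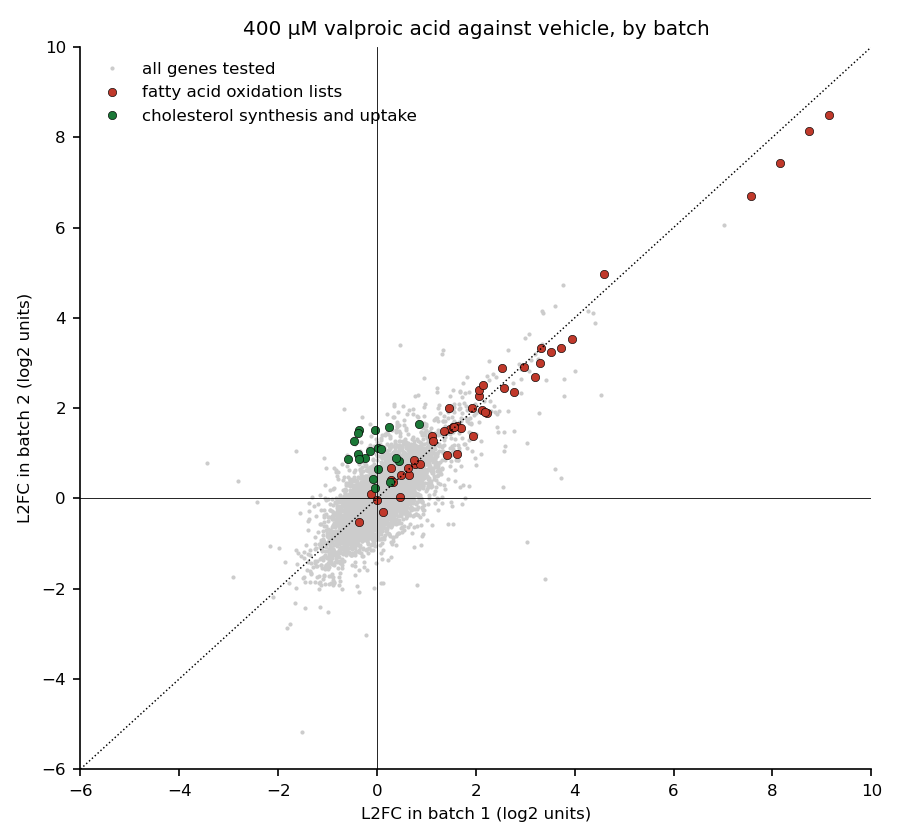
L2FC of 400 µM valproic acid against vehicle in batch 1 (horizontal axis) and batch 2 (vertical axis) by WT assay in log2 units, where each grey point is a gene tested, red points are fatty acid oxidation genes (omega-hydroxylases, thioesterases, peroxisomal, carnitine and mitochondrial lists) and green points are genes of cholesterol synthesis and uptake. Most red points follow the dotted line of equal change, and all 19 green points are above 0 in batch 2 while in batch 1 they lie on both sides of it.

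Other genes changed differently in the batches as well. The estrogen sulfotransferase Sult1e1 rose in batch 1 from 0.714, 1.32 and 1.53 CPM to 14.5, 15.2 and 18.0 CPM, while in batch 2 the wells overlapped, with 4.04, 5.50 and 9.23 CPM against 2.57 to 8.32 CPM. Its L2FC was 3.71 and 0.44 (adjusted p of the difference = 6.86e-08, edgeR), and over both batches it was not called with wells summed per rat. Retsat, which saturates retinol, rose in both, by 2.10 in batch 1 and 0.98 in batch 2. The aldehyde oxidase Aox3 (0.46 and 3.41) and the histidine decarboxylase Hdc (1.31 and 3.20) changed more in batch 2. Retsat, Aox3 and Hdc were chosen after their values were seen.

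Cytochromes P450 and other drug-metabolizing enzymes that answer to the receptors CAR and PXR were tested next. In that list 6 of 11 genes rose and 2 fell, and against medium 5 were higher and 4 lower. Cyp2b2 went from 2.05, 3.60 and 5.71 CPM to 67.6, 70.7 and 98.7 CPM in batch 1 and from 0.825 to 3.33 CPM to 26.7, 27.5 and 36.3 CPM in batch 2, an L2FC of 4.16 ± 0.29. Cyp2b1 rose by 3.56 ± 0.43 from 19 reads over all vehicle wells and Cyp2b3 by 2.07 ± 0.25. Cyp2b1 and Cyp2b2 are nearly identical in sequence, so that the split of reads between them is uncertain. The receptor CAR itself (Nr1i3) rose by 2.08 ± 0.18, with 18.0 to 25.8 CPM in the valproic acid wells against 2.17 to 6.95 CPM. The efflux pumps Abcc2 (-1.42) and Abcc3 (-0.95) fell, and both were chosen after their values were seen.

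Among enzymes that hepatocytes make without an inducer, 6 of 11 CYP2 genes rose and none fell. Cyp2c13 rose by 2.64 ± 0.33, Cyp2c22 by 1.86 ± 0.21 and Cyp2j4 by 1.70 ± 0.16. The level of Cyp2c13 differed between the batches, with 32.1 to 60.7 CPM in the vehicle wells of batch 1 and 3.17 to 6.52 CPM in those of batch 2, but rose in both. In the list of carboxylesterases, epoxide hydrolases and aldehyde dehydrogenases 10 of 18 genes rose and none fell. The soluble epoxide hydrolase Ephx2, which opens fatty acid epoxides, rose by 2.86 ± 0.15, the lipase-like Ces1d by 2.74 ± 0.20 and the retinal dehydrogenase Aldh1a1 by 1.77 ± 0.32. Of 9 glucuronosyl- and sulfotransferases 4 rose, among them Sult2a2 (2.17 ± 0.26) and Sult1b1 (0.76 ± 0.17, not called with wells summed per rat).

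Of 6 AhR targets 2 rose and 1 fell, with a median L2FC of 0.49, and against medium 1 was higher and 1 lower. Aldh3a1 rose by 1.57 ± 0.29 and Cyp1a2, which metabolizes caffeine, by 0.61 ± 0.19, a call lost against medium (L2FC 0.20) and with wells summed per rat. The receptor Ahr fell by 1.14 ± 0.17, but medium alone was lower than vehicle too, and against medium its L2FC of -0.28 did not pass the threshold. The quinone reductase Nqo1 fell by 0.46 ± 0.15, and its call was lost with wells summed per rat and without replicate 1 of valproic acid in batch 2 (L2FC -0.39).

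Of 19 nuclear receptors and other receptors for lipids and xenobiotics, CAR and Ahr among them, 9 rose and 2 fell. The transcript of PPARα (Ppara) went from 29.2, 31.5 and 37.9 CPM to 68.4, 94.8 and 108 CPM in batch 1 and from 63.2 to 80.2 CPM to 135, 156 and 179 CPM in batch 2, an L2FC of 1.23 ± 0.20. Ppard (0.98) and the bile acid receptor Nr1h4 (0.79) rose and Pparg (-0.55, not called with wells summed per rat) fell, and these 3 were chosen after their values were seen. In the bile acid list 4 of 7 genes rose and 1 fell, whereas against medium 1 was higher and 3 were lower. Akr1d1, the reductase that shapes the sterol ring of bile acids, rose by 2.26 ± 0.23. The repressor Nr0b2 rose by 1.18 ± 0.33 and the bile acid importer Slc10a1 by 0.91 ± 0.25, and neither kept its call against medium, with L2FC of 0.53 and 0.55. Nr0b2 also lost its call with wells summed per rat. It passed the filter only with the wells of valproic acid and WY14643. Its mean was 10.8 counts over all wells and 9.40 without them, so that it is no support for the list.

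Enzymes that activate and conjugate medium-chain acids went in both directions. The medium-chain acyl-CoA synthetases Acsm5 (1.64 ± 0.24) and Acsm2 (0.84 ± 0.15) rose, while the glycine acyltransferase-like genes Glyatl2 (-0.50) and Glyatl1 (-0.91 ± 0.20) fell and Glyat itself did not pass the threshold (-0.29). Glyatl1 had an L2FC of 0.07 against medium. Both Glyatl1 and Glyatl2 lost their calls with wells summed per rat. By ST assay the L2FC was -0.91 for Glyat and -0.18 for Glyatl2, and of these 2 genes 1 was called lower, so that the assays differed. Glyatl2 and Glyat were chosen after their values were seen.

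Genes of redox defence mostly did not pass or fell. Of 11 NRF2 targets 1 rose and 5 fell, with a median L2FC of -0.29. Gclc, the catalytic subunit of the enzyme that starts glutathione synthesis, fell by 0.89 ± 0.14. Hmox1 (-0.74 ± 0.27) and Txnrd1 (-0.74 ± 0.26) were less certain. Hmox1 lost its call with wells summed per rat, with no batch term, and without replicate 2 of valproic acid (-0.71) or vehicle replicate 2 (-0.61) or 3 (-0.64) of batch 2. Txnrd1 lost its call against medium (-0.45) and without replicate 2 of valproic acid in batch 1 (-0.62) or replicate 2 (-0.66) or 3 (-0.61) in batch 2. Glutathione S-transferases were even, with 5 of 17 up and 5 down. Gsta4, which acts on lipid aldehydes, rose by 1.08 ± 0.16 and Gstz1 of tyrosine breakdown by 0.89 ± 0.12, and Gstm3 fell by 1.00 ± 0.19.

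Genes of general stress and of chromatin were counted next, and over all genes 15.1% rose and 14.0% fell. In the ATF4 list 5 of 17 genes rose and 1 fell, with L2FC between -0.80 and 0.54. Against medium 1 gene of this list was higher and 6 were lower, and with wells summed per rat none was called. The amino acid importer Slc7a5 had the lowest (-0.80 ± 0.25), and lost its call with the vehicle wells of the same plate only (-0.67). Shmt2 (0.54 ± 0.17) and Ddit4 (0.54 ± 0.13) rose against vehicle but had L2FC of -0.05 and -0.18 against medium. Of 10 chaperones of the endoplasmic reticulum 5 rose, among them Herpud1 (0.63 ± 0.13), and none of the list was called with wells summed per rat. Of 12 p53 targets 1 rose (Ei24, 0.47 ± 0.11) and 1 fell (Aen, -0.35 ± 0.12). By ST assay 1 of 9 rose and 4 fell, where 22.7% of all genes tested rose and 22.3% fell. Aen lost its call against medium (-0.16), with wells summed per rat and without replicate 1 (-0.27) or 3 (-0.32) of valproic acid in batch 2. Of 7 histone deacetylase genes 1 rose (Hdac6, 0.52 ± 0.14) and 1 fell (Hdac10, -0.39 ± 0.09). Of 9 linker and variant histones 1 rose, H2afj (0.44 ± 0.10), with an L2FC of -0.05 against medium.

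Amino acid breakdown rose in part. Of 18 genes of branched-chain amino acid breakdown 11 rose and 2 fell. Ppm1k, the phosphatase that activates the branched-chain keto acid dehydrogenase, rose by 1.09 ± 0.13, and more in batch 1 (1.58) than in batch 2 (0.62; adjusted p of the difference = 0.0258, edgeR). Hsd17b10 of isoleucine breakdown rose by 1.07 ± 0.08. The cytosolic aminotransferase Bcat1 fell by 1.40 ± 0.23. In the urea cycle list 5 of 10 genes rose and 1 fell. Otc (0.82 ± 0.17) and Nags (0.68 ± 0.15), which makes the activator of the first step, rose, and of these Nags was also called with wells summed per rat. Against medium 3 genes of the list were higher and 3 lower. Ass1 fell by 0.65, a call lost with wells summed per rat, and was chosen after its values were seen.

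Secreted proteins of the hepatocyte mostly rose where they were called. Of 14 apolipoprotein and lipoprotein assembly genes 5 rose and 1 fell, and against medium 2 were higher and 2 lower. Mttp, which loads lipid onto apolipoprotein B, rose by 1.55 ± 0.10, and Apoa5 fell by 0.56 ± 0.15, a call lost with wells summed per rat. Apoc2 rose by 0.56 ± 0.19, but lost its call against medium (0.26), with wells summed per rat and without replicate 1 of valproic acid in batch 1 (0.45) or batch 2 (0.37). Acute phase proteins rose in 8 of 16 cases and fell in 1, with fibrinogen chains Fga (0.93 ± 0.19) and Fgb (0.90 ± 0.17) and haptoglobin (Hp, 0.91 ± 0.17) leading. Complement rose in 11 of 22 cases and fell in none, led by C6 (1.79 ± 0.33), C4bpb (1.38 ± 0.17) and the lectin Mbl1 (1.11 ± 0.13). C6 passed the filter only with the wells of valproic acid and WY14643, at 10.8 counts on average over all wells and 9.76 without them. Its presence among the members tested is therefore no support for the list. Of 18 coagulation genes 8 rose and 2 fell, but against medium 3 were higher and 3 lower, and with wells summed per rat 1 was called. F11 (0.83 ± 0.15) and Plg (0.84 ± 0.21), the precursor of plasmin, both lost their calls against medium, with L2FC of 0.22 and 0.47. Plg also lost its call with wells summed per rat and without replicate 1 of valproic acid in batch 2 (0.49).

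Of 15 cell cycle genes 5 rose and none fell, and in batch 1 alone none was called while in batch 2 alone 6 rose. The topoisomerase Top2a (1.18 ± 0.30), the kinase Aurka (1.04 ± 0.22) and the cyclin Ccna2 (1.02 ± 0.29) had L2FC of 0.55, 0.39 and 0.39 in batch 1 and 1.62, 1.51 and 1.48 in batch 2. Their change did not differ between the batches past the threshold. With wells summed per rat 1 gene of the list, Aurka, was called.

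Beside the fatty acid genes already described, the 10 genes that rose most held Cyp2b2 and 3 others. Chrna2, a nicotinic receptor subunit, had 2 reads over the 9 vehicle wells and 142 over the valproic acid wells, a ratio of 106 with an exact 95% interval for counting error of 28.9 to 887. Chrna2 passed the filter through the wells in which it was high, since its mean was 31.1 counts over all 186 wells but 5.20 without those of valproic acid and WY14643. Its wells with valproic acid had 1.65, 2.16 and 4.36 CPM in batch 1 and 3.58, 4.24 and 5.02 CPM in batch 2. Thymidine phosphorylase (Tymp) rose by 4.22 ± 0.25, from 1.67 to 7.14 CPM over all vehicle wells to 31.2 to 105 CPM over all valproic acid wells. The protease inhibitor Serpine2 rose by 3.77 ± 0.31 from 43 reads over the vehicle wells.

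The 10 genes that fell most did so by less, with L2FC between -2.39 and -1.61. Foxp3, a transcription factor known from regulatory T cells, fell by 2.39 ± 0.37, from 1.65 to 4.67 CPM over all vehicle wells to at most 1.24 CPM in a valproic acid well. Tmco5b (-2.30 ± 0.32), the Ras-like Rasl10a (-2.10 ± 0.25), the growth factor Tgfb3 (-2.09 ± 0.36) and Map3k7cl (-1.97 ± 0.22) fell as well. The skeletal muscle actin Acta1 fell by 1.93 ± 0.23, the glutathione peroxidase Gpx2 by 1.85 ± 0.24, Slc2a2 by the 1.80 given above, the natriuretic peptide Nppb by 1.65 ± 0.33 and endothelin 1 (Edn1) by 1.61 ± 0.26. Gpx2 differed between the batches, with 3.04, 4.60 and 4.68 CPM in vehicle wells of batch 1 and 34.9 to 41.7 CPM in those of batch 2. With valproic acid it lay below the vehicle wells of each batch, at 0.697, 0.928 and 1.77 CPM and at 9.34, 9.99 and 12.4 CPM. Its call was lost in a fit with no batch term (L2FC -2.20, adjusted p = 0.0849, edgeR).

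The response was then set beside that to WY14643, a synthetic PPARα agonist, at 8 µM and beside that to 10000 µM valproic acid, each in 6 wells of the same batches. The 10000 µM wells stood on the plates of the 400 µM wells (4 in batch 1, 2 in batch 2) but the WY14643 wells on others (5 and 3), so that plate and compound cannot be told apart in batch 1. In batch 2 vehicle wells stood on both plates, with Fabp1 at 17.4 to 24.5 CPM on plate 2 and 20.6 to 24.4 CPM on plate 3, against 358 to 408 CPM with valproic acid and 8648 to 9562 CPM with WY14643. The treatments share the vehicle wells, and the doses of the compounds differ, so that L2FC against vehicle are given side by side and the differences were tested directly. For Cyp4a1 the L2FC was 10.6 with WY14643, 8.36 with 400 µM and 2.69 with 10000 µM valproic acid and for Fabp1 8.70, 4.24 and -2.23. Directly against WY14643, 4567 genes were called (44.8%; 21.5% higher and 23.3% lower with valproic acid). Valproic acid gave the lower level in both CYP4A genes, 6 of 7 thioesterases, 14 of 16 peroxisomal and 14 of 16 mitochondrial genes. Tymp (difference -0.33 ± 0.23), Pck1 (-0.19 ± 0.22) and Cyp2b1 (-0.45 ± 0.32) did not differ past the threshold, and Cyp2b3 (1.26 ± 0.27), Otc (1.52 ± 0.19) and Mbl1 (0.93 ± 0.15) were higher with valproic acid. Directly against 10000 µM valproic acid, 6657 genes were called (65.3%; 32.5% higher and 32.8% lower at 400 µM). The lower dose gave the higher level in both CYP4A genes, 5 of 7 thioesterases, 12 of 16 peroxisomal and 14 of 16 mitochondrial genes, with a difference of 6.47 ± 0.37 for Fabp1. Pdk4 (-2.07 ± 0.32), G6pc (-2.23 ± 0.32) and Acot7 (-1.20 ± 0.11) were lower at 400 µM than at 10000 µM.

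**Figure D4:**
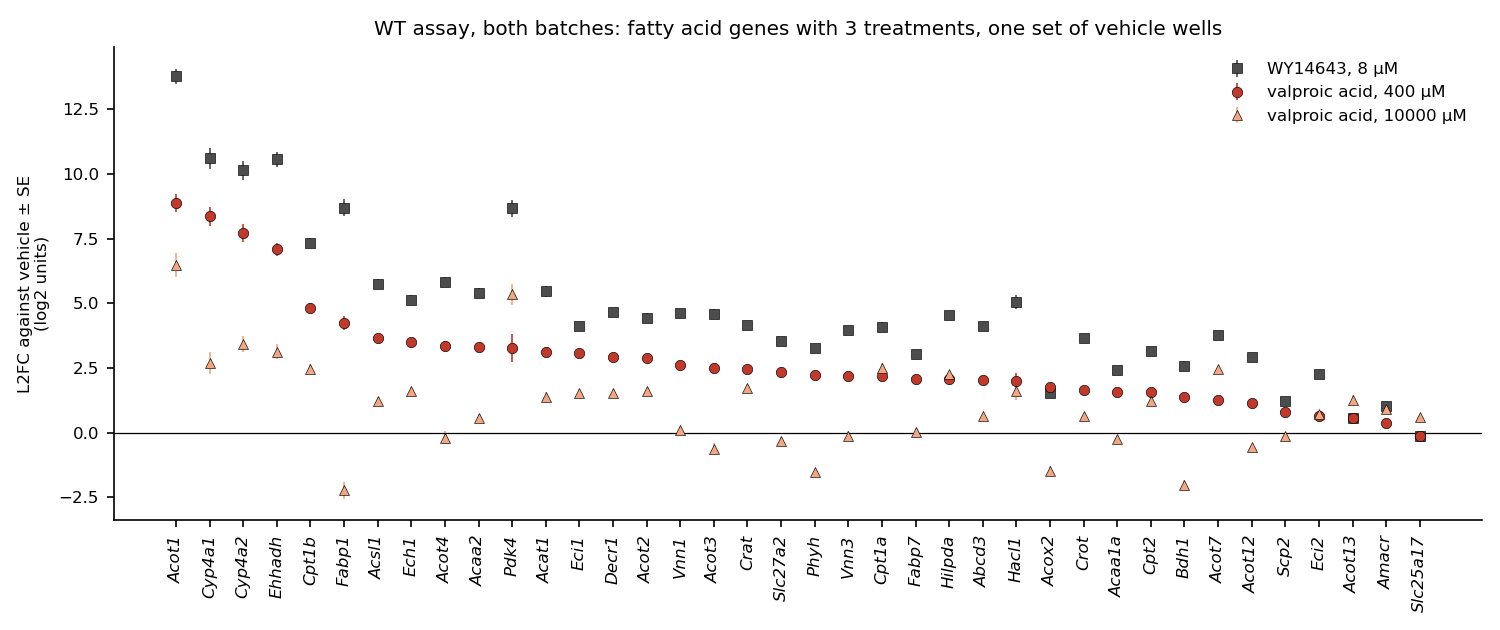
L2FC against vehicle ± SE (WT assay, both batches, log2 units) of fatty acid genes chosen by rule, ordered by their change with 400 µM valproic acid (red circles), with 8 µM WY14643 (grey squares) and 10000 µM valproic acid (light triangles), 6 wells each against the same 9 vehicle wells. For Fabp1 the values are 8.70, 4.24 and -2.23, and the fitted value of Acot1 rests on 2 reads in the vehicle wells.

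The wells held hepatocytes by their defining markers. The 8 hepatocyte markers, among them albumin and transferrin, summed to 36207 to 50985 CPM with valproic acid against 35130 to 39738 CPM with vehicle in batch 1, where they overlapped, and to 45153 to 47787.5 against 37119 to 42511.5 CPM in batch 2, where they did not, and 2 of them rose (Hnf4a, 0.75, and Tat, 0.39). The 6 endothelial markers summed to at most 3.63 CPM in any of these wells. Of the cholangiocyte markers Krt19, Krt7 and Cftr were at 3 reads or fewer in every one of these wells, and Epcam fell by 0.55. The sum of the 6 was lower with valproic acid in both batches, at 23.4 to 32.3 against 36.97 to 44.2 CPM in batch 1 and 29.7 to 37.8 against 39.9 to 47.4 CPM in batch 2. Epcam carried most of this, with a mean of 19.0 against 31.3 CPM in batch 1 and 29.2 against 38.6 CPM in batch 2. Sox9 (L2FC 0.56) and Spp1 (-0.57) went opposite ways and did not pass the threshold. The sum of the 7 stellate cell and fibroblast markers on the assay was lower in both batches too, at 298 to 309 against 374 to 400 CPM and at 123 to 143 against 236 to 303 CPM. Reln alone carried this, with a mean of 123 against 254 CPM in batch 1 and 81.5 against 227 CPM in batch 2 (L2FC -1.28 ± 0.12), whereas Col3a1 rose by 0.48, with 121 against 96.7 CPM and 36.2 against 23.3 CPM. The 8 macrophage markers were higher with valproic acid in batch 1, at 66.1 to 75.1 against 48.8 to 62.3 CPM, and lower in batch 2, at 26.6 to 27.5 against 29.4 to 40.2 CPM, and Cd163 fell by 0.62. The 3 lymphocyte markers on the assay summed to at most 7.86 CPM, and 2 of them were at 3 reads or fewer in every one of these wells. Their part in the results was not tested.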

How the data were processed

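Each lysate was run by TempO-Seq with the WT (22253 probes) and the ST (2654 probes) assay. Per the submitters' processing notes the authors used STAR 2.5.3a and rn6, and they deposited raw counts, 1 per probe in each well. Here, probes were joined to genes by adding those that carry the same symbol (20946 genes for WT, 2604 for ST). No 2 wells had identical counts. Testing was by quasi-likelihood in edgeR 4.0.16 (R 4.3.3) with TMM and a trended dispersion, for genes that averaged 10 counts or more over the 186 wells of an assay, on all wells of the assay with treatment and batch as terms, and Benjamini-Hochberg adjustment. The plots were drawn with matplotlib 3.10.9.

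The treatment, gene lists and tests were chosen with earlier results of these data known. Genes were named by rule: the 10 highest and 10 lowest L2FC among genes called in one direction in each batch, leaving out locus identifiers, every tested member of the CYP4A, thioesterase and peroxisomal beta-oxidation lists, and up to 3 of the largest called genes of every other list. Others are marked, and some genes are not reported here. Alternatives were DESeq2 1.42.0, RLE size factors, no filter, only the wells compared, vehicle wells of one plate, medium alone as control, wells summed per batch, no batch term, single probes, an absolute L2FC of at least 1, and each well left out in turn. The code was tested on simulated counts. Counting intervals cover counting error only, since reads are not single molecules.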

Additional observations from a re-analysis of the deposited data

Results flagged for a closer look

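Among the 127 genes named by rule, each tested in the 6 vehicle wells of batch 2, 5 had a well far from the others by Dixon's ratio, and chance flags about 1 group in 20. Acot1 had 0.167 CPM in 1 well, which is its only read in this group, and 0 in the other wells. Vnn3 was at 3.85 CPM in its lowest well and at 4.96 to 5.35 CPM in the others. Slc10a1 was at 3.33 CPM in its highest well against 2.33 to 2.48 CPM, Slc25a17 at 87.6 CPM in its lowest against 97.4 to 103 CPM, and Gstm3 at 65.4 CPM in its highest against 44.5 to 51.6 CPM.

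The change of 3 of the named genes differed between the batches by the interaction term of the edgeR fit. The L2FC of Sult1e1 in batch 2 was lower than in batch 1, with a difference of -3.26 (adjusted p = 6.86e-08), that of Ppm1k likewise, with -0.94 (adjusted p = 0.0258), and that of Insig1 was higher, with 0.81 (adjusted p = 0.0379). Each batch is 1 rat, and the study prepared and sequenced the libraries of each batch separately. The animal, its plates, the library preparation and the sequencing run therefore cannot be told apart.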

How the results depend on the processing

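The count of genes called over both batches by WT assay ran from 2547 to 3035 when a well was left out. It moved by over 1.5 times with the wells summed per rat (1228) and with an absolute L2FC of at least 1 (505). By ST assay these gave 430 and 198, and 692 to 786 with a well left out. In batch 1 alone the count was 859 with only the wells compared in the fit, 440 with the L2FC limit and 1055 to 1477 with a well left out. In batch 2 alone it was 645 with the L2FC limit and 1948 to 2481 with a well left out. Against WY14643 the L2FC limit gave 885 genes and leaving out a well 3964 to 4774, and against 10000 µM valproic acid 2437 and 6428 to 6576. The number of genes whose change differed between the batches was 24 with the L2FC limit. With a well left out it ran from 23 to 44, and fell by over 1.5 times without replicate 1 (24) of valproic acid in batch 1, replicates 1 (23) and 3 (28) of valproic acid in batch 2, and vehicle replicates 1 (27) and 2 (23) of batch 1.

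With culture medium in place of vehicle the L2FC changed sign for Scd (-1.41), Scd2 (-0.19), Ddit4 (-0.18), H2afj (-0.0546), Shmt2 (-0.0495) and Glyatl1 (0.0744), and 16 of the 127 named genes lost their call, 5 of them among these 6. Summing the wells per rat ended the call of 25 named genes, and leaving out the batch term that of 7. The cause of these changes was not tested. No paired analysis was possible because no replicate numbers link single treated wells to single vehicle wells. Treated and vehicle wells were compared within each rat by the batch term, also with the wells summed. With 2 rats, differences between animals are poorly measured, and genes with few reads rest on counting error.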
